A study of Mus musculus with 3 samples.

Results

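The genes described here are 28 genes of cholesterol and fatty acid synthesis, among 37646 genes counted in sorted lymphoma B cells of the pBIC mouse. They comprise both sterol regulatory element-binding protein (SREBP) genes, their escort and their retention factor, and enzymes of the mevalonate, sterol and fatty acid routes. They were selected by gene symbol, and each symbol had a single row in every library. Each of the 3 libraries was made from polyadenylated RNA of live B220+GFP+ cells, sorted from a C57BL/6 spleen of the genotype p53F/F, Blimp1F/F, IKK2castopF/stopF, Cg1Cre/+ after lysis of red cells. In this model Cre is driven from the immunoglobulin gamma 1 constant locus. It removes floxed Trp53 and Prdm1 (BLIMP1) and switches on an active IKK2, and all 3 tumours share these alleles. The labels present it as a model of the activated B cell subtype of diffuse large B cell lymphoma and give no ages. Normal germinal centre B cells named in the design were not analysed here, so every value is a level in lymphoma cells or a difference between tumours, and no gene is called raised or lowered by the disease.

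SREBPs are made as precursors in the membrane of the endoplasmic reticulum, where SCAP escorts them and INSIG proteins hold the complex back while sterols are plentiful. When sterols are scarce the complex moves to the Golgi, and proteases release the part that enters the nucleus and activates genes of lipid synthesis. SREBF2 acts mainly on sterol genes and SREBF1 mainly on fatty acid genes. Dividing lymphocytes are known to draw on both routes for new membrane. Because cleavage sets SREBP activity, the RNA level of an SREBP gene does not measure it.

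Promoter windows were available from RefSeq (GRCm38.p6) for 23 of the 28 genes, each spanning 250 bases before to 50 bases after an annotated start. Letters of the classical sterol element, CACCCCAC, were found on either strand in 1 of the 23 genes, Hmgcs1, and in 3.70% of 8755 genes that passed the filter on low counts and had a window. The longer spelling TCACNCCAC overlaps it at the same place in Hmgcs1 and was in 1.34% of the 8755 genes. The E-box spelling ATCACGTGA was in 0 of the 23 genes and in 0.777% of the 8755. CCAAT, the box bound by NF-Y, a factor known to act with SREBPs at sterol genes, was in a window of 20 of the 23 genes (87.0%) and of 43.7% of the 8755. GGGCGG, a box bound by SP1, was in 19 of the 23 and in 69.0% of the 8755. These are matches of letters, and a missing match says only that the letters are not in that window.

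Windows of 4 genes are printed as examples and do not span the members. Hmgcs1 holds the sterol element letters, Mvk and Insig1 were more than 2-fold higher in tumour 3 than in tumour 2, and Nsdhl had the smallest range between tumours. Capitals mark CCAAT on either strand (ATTGG on the printed strand when reversed) and, in Hmgcs1, the sterol element. Sequences run 5′ to 3′ on the strand of the gene. The windows are chr13:119690101-119690400 (plus strand) for Hmgcs1, chr5:114444019-114444318 (plus) for Mvk, chr5:28071162-28071461 (plus) for Insig1 and chrX:72918271-72918570 (plus) for Nsdhl. 
Hmgcs1: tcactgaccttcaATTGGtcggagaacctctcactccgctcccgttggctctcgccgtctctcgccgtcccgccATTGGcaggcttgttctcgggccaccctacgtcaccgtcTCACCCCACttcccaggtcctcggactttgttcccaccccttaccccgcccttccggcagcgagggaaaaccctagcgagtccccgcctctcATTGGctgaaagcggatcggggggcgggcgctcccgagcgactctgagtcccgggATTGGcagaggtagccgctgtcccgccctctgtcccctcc
Mvk: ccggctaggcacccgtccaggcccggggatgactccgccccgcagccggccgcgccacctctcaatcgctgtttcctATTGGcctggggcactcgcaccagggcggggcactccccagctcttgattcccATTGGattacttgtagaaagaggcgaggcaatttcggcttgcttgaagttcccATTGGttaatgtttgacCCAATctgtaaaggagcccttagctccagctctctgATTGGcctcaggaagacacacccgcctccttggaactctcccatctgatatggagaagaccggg
Insig1: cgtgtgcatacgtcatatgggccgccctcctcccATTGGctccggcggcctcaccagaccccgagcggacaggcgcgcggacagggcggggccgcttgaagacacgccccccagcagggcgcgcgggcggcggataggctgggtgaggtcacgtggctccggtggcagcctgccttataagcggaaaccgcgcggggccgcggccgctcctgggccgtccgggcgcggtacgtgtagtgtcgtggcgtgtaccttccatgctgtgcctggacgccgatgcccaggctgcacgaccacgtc
Nsdhl: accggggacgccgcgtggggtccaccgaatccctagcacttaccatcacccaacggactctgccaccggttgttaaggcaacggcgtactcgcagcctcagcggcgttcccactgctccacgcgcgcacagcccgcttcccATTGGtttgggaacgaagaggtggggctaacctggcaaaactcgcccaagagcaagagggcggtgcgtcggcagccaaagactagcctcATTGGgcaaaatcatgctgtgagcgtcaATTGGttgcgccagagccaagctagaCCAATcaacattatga
The sterol element letters of Hmgcs1 begin 136 bases before the start. CCAAT occurs 4 times in the Hmgcs1 window, 5 times in that of Mvk, 4 times in that of Nsdhl and 1 time in that of Insig1. The window of Elovl6, a gene 2.84-fold higher in tumour 3 than in tumour 2, is not printed and held 0 CCAAT and 0 GGGCGG.

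The libraries were of like depth, with 15022902 to 15141009 counts. Levels are given in CPM, counts scaled to library size with TMM factors of 0.959 to 1.02. Levels per length are given in TPM, from the union of each gene's annotated exons. All 10 B cell markers reached 1 CPM in every tumour, with summed levels of 3246 to 5495 CPM, as the label of the cells asks. Adipocyte markers, from a cell type rich in the same enzymes, summed to 0.904 to 2.84 CPM, with Plin1 and Lep at 0 counts in every tumour. The labels do not state that the 3 tumours came from separate animals, so every SD and test below measures only the spread between these samples. In sorted bulk RNA, fewer cells of a kind and less RNA per cell cannot be told apart.

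Of the 28 genes, 27 reached 1 CPM in every tumour and passed the filter on low counts, where 28.7% of all listed genes and 53.8% of protein-coding genes reached that level. Their median was 31.4 CPM, beside 33.4 CPM over the 11478 genes tested, and per length 22.5 TPM beside 22.4 TPM. The set was thus of average abundance as a whole but uneven within. A group of 5, the fatty acid genes Fasn, Scd1, Scd2 and Acly and the regulator Srebf2, held 73.0%, 71.7% and 76.3% of the summed CPM of the 28 in tumours 1, 2 and 3. All 28 together summed to 2573, 2382 and 3643 CPM.

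**Figure D1:**
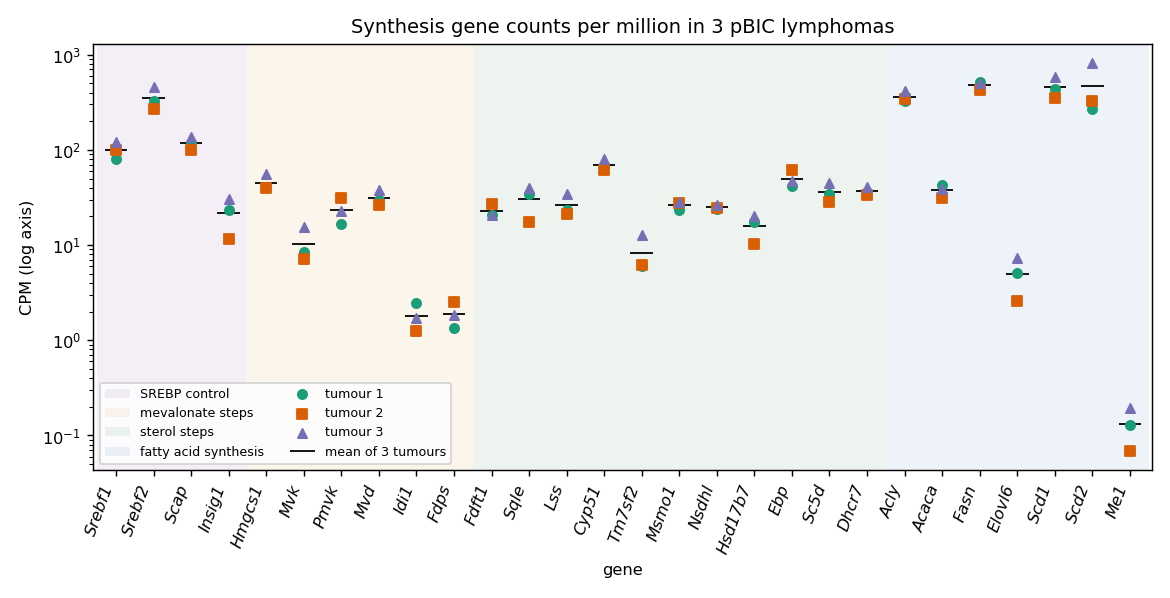
Level of each of the 28 genes in CPM (log axis) in tumours 1, 2 and 3, grouped by role along the horizontal axis, with a bar at the mean of 3 tumours. Fasn, Scd1, Scd2, Acly and Srebf2 lie at 269 CPM or more in every tumour, and Me1 lies at 0.195 CPM or less.

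Among the regulators, Srebf2 (chromosome 15, 82147181 to 82205379, plus strand) was the most abundant, at 329.7, 272 and 458 CPM in tumours 1, 2 and 3. Srebf1 (chromosome 11, 60199089 to 60222581, minus strand) had 80.03, 99.5 and 119.7 CPM. Every tumour thus had more Srebf2 than Srebf1, and both were highest in tumour 3. Per length, Srebf2 had 150.3, 104 and 193 TPM against 46.5, 48.4 and 64.3 TPM for Srebf1. The difference Srebf2 minus Srebf1 was 1.44 ± 0.31 in log2(TPM + 1) (SD, n = 3), 2.72-fold, and positive in 3 of 3 tumours. The two-sided exact sign-flip p was 0.25, the smallest that 3 tumours allow, and 0.5 after Benjamini-Hochberg adjustment over the 4 gene pairs compared. Counts per gene do not separate the Srebf1 isoforms, which start at different promoters.

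Scap, which escorts SREBPs, had 117, 100.4 and 137 CPM, a 1.36-fold range. Insig1 (chromosome 5, 28071363 to 28078662, plus strand), the retention factor and itself a known SREBP target, had 23.4, 11.7 and 30.7 CPM in tumours 1, 2 and 3. Tumour 3 was 2.64-fold and tumour 1 2.01-fold above tumour 2. Its paralogue Insig2 had 16.7, 18.2 and 15.1 CPM, and 15.7, 14.3 and 13.2 TPM. The difference Insig1 minus Insig2 was 0.63, -0.44 and 1.13 in log2(TPM + 1), with a mean of 0.44 ± 0.80 (SD, n = 3) and an exact sign-flip p of 0.5 (0.667 adjusted over 4 pairs). Which of these paralogues was higher therefore depended on the tumour.

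The mevalonate genes were moderate. Hmgcs1, which makes HMG-CoA, had 40.7, 40.1 and 55.1 CPM in tumours 1, 2 and 3. Mvk (chromosome 5, 114444269 to 114460591, plus strand), the kinase that acts on mevalonate, had 8.39, 7.15 and 15.4 CPM. Pmvk, the kinase of the step after it, had 16.6, 31.2 and 22.7 CPM. Mvk was highest in tumour 3, while Pmvk was highest in tumour 2, so neighbouring steps did not share an order. Mvd, whose product is isopentenyl diphosphate, had 29.6, 26.4 and 38.2 CPM. Per length this group ran from 1.33 TPM for Fdps to 51.1 TPM for Mvd.

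Idi1 and Fdps, which isomerise isopentenyl diphosphate and join it into farnesyl diphosphate, were the lowest genes that passed the filter. Idi1 had 38, 18 and 26 counts and Fdps 21, 36 and 28 counts in tumours 1, 2 and 3. The exact Poisson intervals, 10.7 to 28.4 counts for the lowest Idi1 value and 25.2 to 49.8 counts for the highest Fdps value, cover counting error only. Both genes share much of their sequence with others in GENCODE M21. Of all stretches of 50 bases (the read length) in Idi1 transcripts, 25.3% also occur exactly in another gene, and 4 processed pseudogenes are among the 5 sharing genes. The share in Fdps was 26.2%, with 7 pseudogenes among 8 sharing genes, and a gene on the same strand, Gm43738, covers 26.7% of its exons. Gm43738 was listed at 0 counts in every tumour. How reads with several matches were counted is not given in the sources used here, so the levels of Idi1 and Fdps are uncertain, and the part of shared sequence in them was not tested.

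The 11 sterol genes, from squalene to cholesterol, summed to 326, 321 and 395 CPM in tumours 1, 2 and 3. Cyp51, the lanosterol demethylase, led in CPM at 64.8, 62.2 and 80.7 CPM, and Ebp, the sterol isomerase, led per length at 58.6, 72.8 and 61.2 TPM. Sqle (chromosome 15, 59315077 to 59331192, plus strand), squalene epoxidase, a known control point of the route, had 34.6, 17.6 and 39.5 CPM. Hsd17b7, a ketoreductase of the demethylation steps, had 17.6, 10.2 and 20.06 CPM. Sqle and Hsd17b7 shared the order of Insig1, lowest in tumour 2 and highest in tumour 3, as did Cyp51, Lss, Sc5d and Dhcr7. Members of other roles, such as Srebf2, Hmgcs1 and Scd1, had this order too.

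Other sterol genes were flatter. Nsdhl, which removes a methyl carbon, had 23.7, 24.7 and 26.6 CPM, a 1.12-fold range, the smallest of the 28 genes. Msmo1, the methylsterol oxidase, had 23.5, 27.9 and 28.2 CPM, and Dhcr7, a reductase of the last steps, 36.3, 33.8 and 40.7 CPM. Lss, which closes squalene epoxide into lanosterol, had 23.2, 21.3 and 34.0 CPM, and Sc5d, a sterol desaturase, 34.7, 28.6 and 45.3 CPM. In CPM, tumour 3 was above tumour 1 in all 11 sterol genes, where 50.2% of all tested genes were. For Fdft1, with 317 counts in tumour 3 and 319 in tumour 1, the order was the opposite in TPM, at 14.8 and 15.9 TPM.

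Fdft1 and Tm7sf2 need care in reading. Fdft1, squalene synthase, had 20.6, 26.9 and 20.6 CPM, and 18.3% of its exons lie opposite exons of Ctsb, a cathepsin gene with 5433 to 6247 counts. Tm7sf2 (chromosome 19, 6062821 to 6068373, minus strand), a sterol reductase, had 6.07, 6.17 and 12.6 CPM, and 12.1% of its exons overlap Vps51 on the same strand (585 to 902 counts). Lbr encodes a reductase for the same step and was more abundant, at 99.2 TPM against 5.68 TPM for Tm7sf2. Whether counting used strand is not given in the sources used here.

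**Figure D2:**
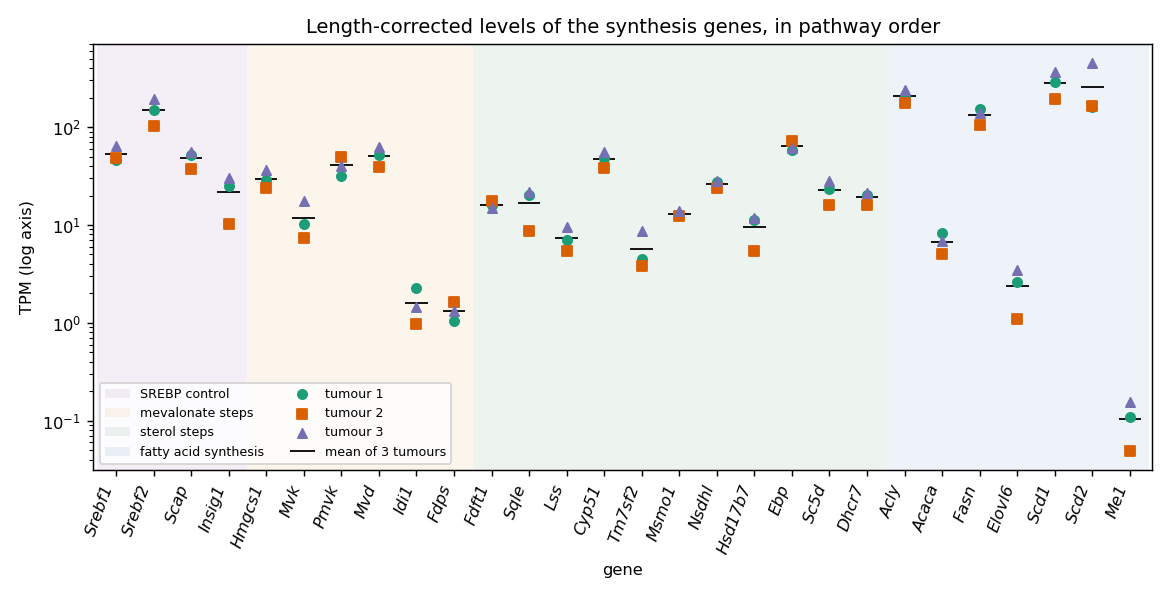
Length-corrected level of each gene in TPM (log axis) in tumours 1, 2 and 3, along the order of the pathway, with a bar at the mean of 3 tumours. Mean levels span 1.33 TPM for Fdps to 284 TPM for Scd1 among genes that passed the filter.

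Fatty acid synthesis held the most abundant members. Acly, which supplies acetyl-CoA in the cytosol, had 326, 339.9 and 416 CPM in tumours 1, 2 and 3, and Fasn, fatty acid synthase (chromosome 11, 120805846 to 120824547), had 517, 424 and 508 CPM. In CPM, both stayed within a 1.28-fold range. Per length they averaged 206 ± 31.3 and 134 ± 24.9 TPM (SD, n = 3) and stood at percentiles 94.2 and 89.6 of the tested genes. Their ranges per length were wider, at 176 to 239 TPM for Acly and 106 to 155 TPM for Fasn. Neither shares a stretch of 50 bases with another annotated gene.

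Acaca, the carboxylase between them that makes malonyl-CoA, was far lower at 43.1, 31.4 and 38.5 CPM, or 6.71 ± 1.62 TPM (SD, n = 3). Of its 50-base stretches, 30.4% occur in other genes, most of them in the pseudogene Gm5182, which had 4 to 11 counts. Scaled to its longest annotated transcript, Acaca had a mean of 9.46 TPM. As for Idi1 and Fdps, the level of Acaca is uncertain, and the part of shared sequence in it was not tested. Its paralogue Acacb had 6.45, 1.18 and 7.62 CPM, below Acaca in 3 of 3 tumours. The difference Acaca minus Acacb was 1.64 ± 0.49 in log2(TPM + 1) (SD, n = 3), with an exact sign-flip p of 0.25, the smallest possible (0.5 adjusted over 4 pairs). With a pseudocount of 0.1 TPM the difference was 2.30. It was 2.19 with the longest annotated transcript as length and 2.89 in CPM, with no division by length.

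The stearoyl-CoA desaturases, which place the double bond of oleate, had the highest mean levels per length, though Acly was above Scd2 in tumours 1 and 2. Scd1 (chromosome 19, 44394455 to 44407879, minus strand) had 437, 347 and 587 CPM in tumours 1, 2 and 3. Scd2 (chromosome 19, 44293674 to 44306864, plus strand) had 269, 324 and 810.1 CPM. Scd2 was thus 3.01-fold higher in tumour 3 than in tumour 1, the widest range of the 27 genes that passed the filter. In log2(TPM + 1), Scd2 minus Scd1 was -0.86 and -0.26 in tumours 1 and 2 and 0.30 in tumour 3. The mean was -0.27 ± 0.58 (SD, n = 3; exact sign-flip p = 0.75, also 0.75 adjusted over 4 pairs), and 0.02 without tumour 1, so no order of the paralogues held across tumours. Of their 50-base stretches, 4.56% in Scd1 and 3.97% in Scd2 occur in other genes, chiefly in each other and in Scd3, which had at most 2 counts.

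The remaining fatty acid genes were scarce. Elovl6 (chromosome 3, 129532355 to 129638495, plus strand), which lengthens palmitate, had 5.10, 2.57 and 7.30 CPM, a 2.84-fold range, from 37 to 112 counts. Me1, a cytosolic source of NADPH, had 2, 1 and 3 counts and did not pass the filter. Each is at or under the floor of 3 counts, so no fold between tumours is given. Of its 50-base stretches 28.3% are shared.

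**Figure D3:**
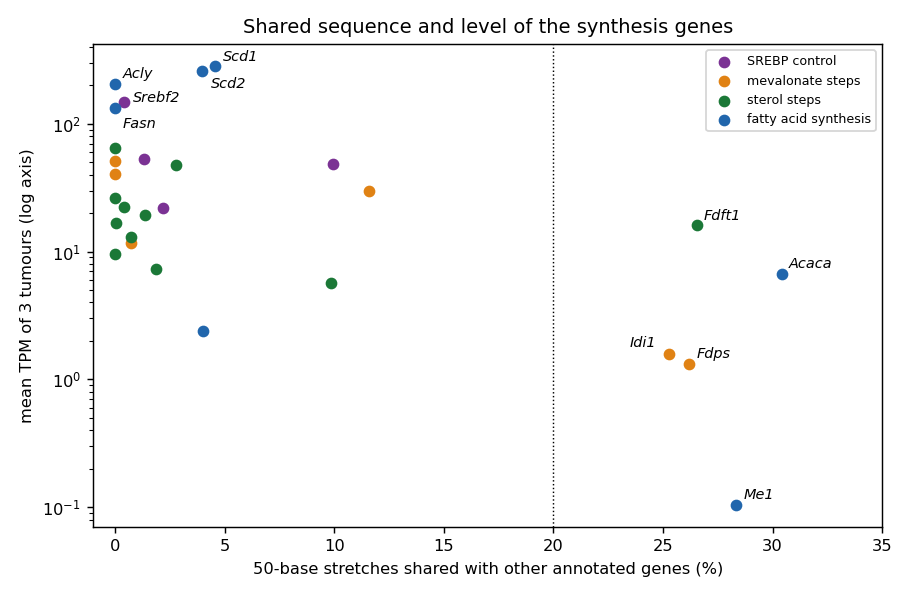
Mean TPM over 3 tumours (log axis) against the percentage of 50-base stretches of each gene that occur in another annotated gene, coloured by role, with a dotted line at 20%. The 5 genes over 20% are Fdft1, Acaca, Idi1, Fdps and Me1, and 7 genes share none.

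When the 28 genes were put in order of mean TPM, the ranges over tumours overlapped in 23 of 27 neighbouring pairs. These ranges do not pair the genes by tumour, so an overlap does not mean that the order changed. Acly was above Srebf2 in every tumour, at 202, 176 and 239 TPM against 150, 104 and 193 TPM, though their ranges overlap. The order of Scd2 and Acly did change, with Acly above Scd2 in tumours 1 and 2 only. A gap stood below Fasn, whose lowest tumour had 106 TPM against 72.8 TPM for the highest of Ebp, the next gene. The other gaps stood below Fdft1, Tm7sf2 and Fdps. Among Scd1, Scd2, Acly, Srebf2 and Fasn, above the upper gap, the ranges of neighbours in the order overlapped. Genes further apart were in part separate. The lowest tumour of Scd1, at 194.6 TPM, was above the highest of Srebf2 (193.1 TPM) and of Fasn (154.6 TPM). The lowest values of Acly (176 TPM) and Scd2 (161 TPM) were also above the highest of Fasn.

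The edgeR test of spread asks whether a gene varied between tumours more than genes of similar abundance. It called 0 of the 27 genes tested, where 0.139% of 11478 genes passed at an adjusted p under 0.05. At an unadjusted p under 0.05 it took in 1 of the 27, Scd2, where 6.27% of all genes did. With limma-trend, 0 of all 11478 genes passed, and 1 of the 27 genes and 4.83% of all had an unadjusted p under 0.05. The smallest adjusted p-values in the edgeR test were 0.497 for Scd2, 0.977 for Insig1 and 0.986 for Sqle. The median range, highest over lowest tumour, was 1.58-fold in the 27 genes beside 1.64-fold over all tested genes. The spread of the set was thus close to that of genes at large. A p that misses the threshold does not show that the tumours are alike.

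**Figure D4:**
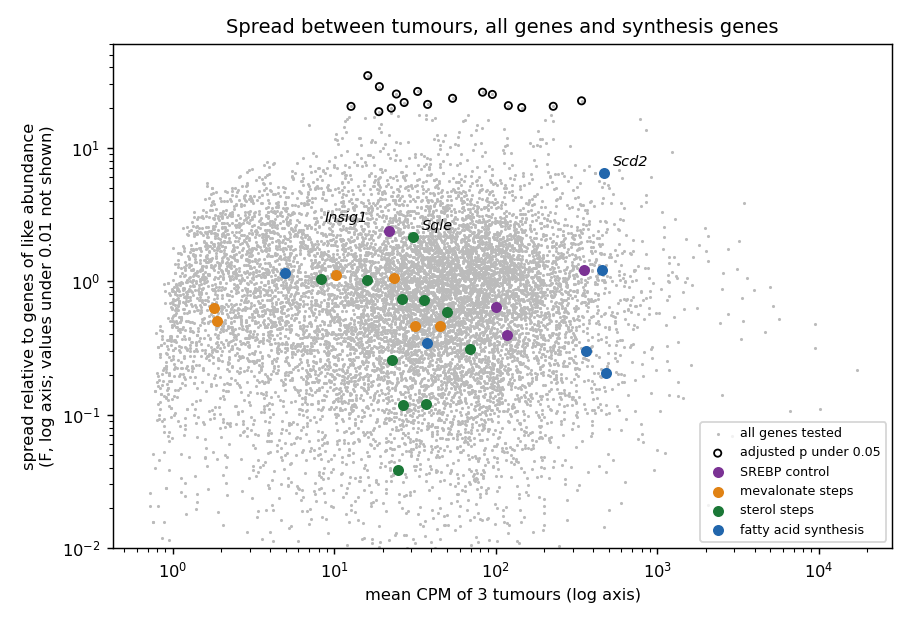
Spread between tumours relative to genes of like abundance (F ratio, log axis) against mean CPM (log axis) for 11478 genes, with the 27 tested synthesis genes coloured by role and the 16 genes past the threshold circled. Scd2 stands highest among the coloured points, below every circled gene.

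What the members shared was which tumour was highest. Tumour 3 was the highest for 20 of the 27 genes, where 31.7% of all tested genes were highest in it, and the lowest for 0 of them. Tumour 1 was the highest for 3, where 32.3% of all were, and tumour 2 for 4, where 35.9% were. Tumour 2 was the lowest for 17 of the 27, where 34.4% of all tested genes were. By role, tumour 3 was the highest for 4 of 4 regulators, 3 of 6 mevalonate genes, 9 of 11 sterol genes and 4 of 6 fatty acid genes. These counts carry no test, since each tumour is 1 sample.

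The differences were small for most genes. Tumour 3 exceeded tumour 2 in 23 of 27 genes, where it did so in 48.6% of all tested genes, with a median difference in log2 CPM of 0.45 beside -0.02. It exceeded tumour 1 in 24 of 27, where 50.2% of all did, with a median of 0.37 beside 0.00245. Tumour 1 exceeded tumour 2 in 17 of 27, where 49.9% of all did, with a median of 0.13 beside -0.00136. These 3 comparisons share their tumours and are not independent. The 4 genes higher in tumour 2 than in tumour 3 were Pmvk, Fdps, Fdft1 and Ebp. Without the tested genes that share over 20% of their stretches, tumour 3 was the highest for 20 of 23 (an alternative chosen after seeing the data).

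A difference over 2-fold between the highest and lowest tumour was present in 6 of 27 genes, where 28.7% of all tested genes had such a range. The 6 were Insig1, Mvk, Sqle, Tm7sf2, Elovl6 and Scd2, and in each tumour 3 was over 2-fold above tumour 2, where 9.25% of all genes were. Tumour 3 was below tumour 2 by over 2-fold for 0 genes, where 7.97% of all were. Tumour 3 was over 2-fold above tumour 1 for Tm7sf2 and Scd2, where 4.89% of all were, and below it by as much for 0, where 9.91% were. Tumour 1 was over 2-fold above tumour 2 for Insig1 alone, where 10.1% of all were, and below it by as much for 0, where 3.56% were. Their folds, tumour 3 over tumour 2, ran from 2.05 for Tm7sf2 to 2.84 for Elovl6. The count was 2 without tumour 2, where 15.2% of all tested genes had such a range, and 1 without tumour 3, where 13.9% had. Without tumour 1 it was 6, where 17.0% of all had.

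**Figure D5:**
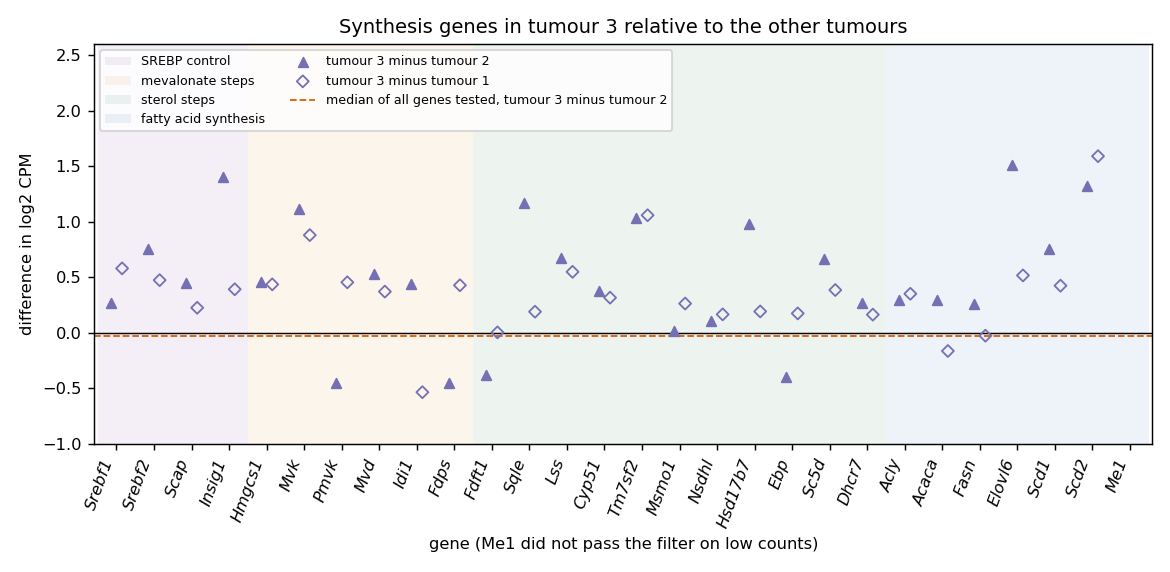
Difference in log2 CPM for each of the 27 tested genes, tumour 3 minus tumour 2 (filled) and tumour 3 minus tumour 1 (open), by role, with a dashed line at the median of all tested genes. Filled points lie above 0 in 23 of 27 genes, up to 1.51 for Elovl6.

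Several other features of the libraries moved with tumour. Erythroid markers summed to 167 CPM in tumour 3 against 29.9 CPM in tumour 2 and 9.68 CPM in tumour 1, led by Hbb-bs, which itself passed the edgeR test (adjusted p = 0.0234), with 4 of 9 at 1 CPM in every tumour. T cell markers summed to 109 CPM in tumour 3 against 61.5 and 78.5 CPM in tumours 2 and 1, with 8 of 10 at 1 CPM. Cd8b1 alone gave 55.04 CPM of the sum in tumour 3, and the other 9 summed to 54.2 CPM there, against 42.7 CPM in tumour 2 and 53.8 CPM in tumour 1. Lck and Cd5 were lowest in tumour 3, at 9.38 and 2.74 CPM. Neutrophil markers ran the other way, at 3.78 CPM in tumour 3 against 22.2 and 59.2 CPM, and 0 of 9 reached 1 CPM in every tumour. Macrophage markers summed to 152 to 166 CPM, most of it Cd68, with 4 of 11 at 1 CPM. The other 10 summed to 42.3 CPM in tumour 2, the lowest tumour for most synthesis genes, against 10.2 CPM in tumour 3 and 14.1 CPM in tumour 1. The 15 proliferation genes summed to 2252 CPM in tumour 3 against 3943 CPM in tumour 2 and 3283 CPM in tumour 1. The tumour with the highest sum of synthesis genes thus had the lowest sum of proliferation genes. Mki67 and Top2a weighed on that sum, at 306 and 270 CPM in tumour 3 against 833 and 649 CPM in tumour 1. Of the 15, tumour 3 was above tumour 2 in 0 and above tumour 1 in 5, where 48.6% and 50.2% of all tested genes were. The 10 B cell markers summed to 3246 CPM in tumour 3 against 3491 CPM in tumour 2 and 5495 CPM in tumour 1. Stromal and endothelial markers summed to at most 2.71 CPM, with Col3a1 and Lyve1 at 0 counts in every tumour. The part of these features in the pattern of tumours 2 and 3 was not tested.

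Genes next to these in the pathway did not all follow the same order. Of 14 genes of SREBP control and sterol branches, 13 were tested and 0 passed the edgeR test. Their median range was 1.29-fold. Tumour 3 was the highest for 4 of 13, where 31.7% of all tested genes were highest in it. Their median difference in log2 CPM was 0.08 for tumour 3 minus tumour 2 and -0.11 for tumour 3 minus tumour 1. The most abundant were Nus1 (187 ± 29.9 CPM), which acts in dolichol synthesis, Lbr (157 ± 18.7 CPM) and Mbtps1, a protease that cleaves SREBPs (153 ± 13.5 CPM; SD, n = 3).

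Of 15 genes of sterol transport and storage, 13 were tested and 0 passed. Tumour 3 was the highest for 9 of the 13, where 31.7% of all tested genes were highest in it. The median difference of this list in log2 CPM was 0.44 for tumour 3 minus tumour 2 and 0.39 for tumour 3 minus tumour 1. The 27 tested synthesis genes had 0.45 and 0.37, so the shift was not particular to them. Npc2, which carries cholesterol out of lysosomes, had 296, 326 and 387 CPM in tumours 1, 2 and 3. Abcg1, a sterol exporter, had 90.9, 105 and 251 CPM, and Gramd1a, which moves sterol from the plasma membrane, 122, 94.01 and 123 CPM.

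Of 23 genes of fatty acid supply and modification, 21 were tested and 0 passed. Tumour 3 was the highest for 10 of the 21, where 31.7% of all tested genes were highest in it. Their median difference in log2 CPM was -0.05 for tumour 3 minus tumour 2 and 0.24 for tumour 3 minus tumour 1, beside 0.52 and 0.39 for the 6 tested fatty acid members. Acsl5, which activates fatty acids, had 213 CPM in tumour 3 against 389.8 and 325 CPM in tumours 2 and 1. Tecr and Hsd17b12, of the elongation cycle, had 167 ± 26.7 and 113 ± 43.5 CPM (SD, n = 3). No test of the difference between these lists was run.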

How the data were processed

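RNA-seq libraries of 3 pBIC splenic lymphomas were analysed. The authors deposited unnormalized counts of reads for each gene, in a file for each tumour. The submitters' processing notes name the build mm10 and the tools FastQC, featureCounts 1.6.0 and STAR 2.5.2b. The sources used here do not give strand use, the annotation release or the treatment of reads with several matches.

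Coordinates and union exon lengths came from GENCODE M21 (GRCm38, the assembly of mm10), which held 37536 of 37646 gene identifiers and all 28 members. Counts were scaled to CPM with TMM. In R 4.3.3 with edgeR 4.0.16, an intercept-only quasi-likelihood model was fitted to genes passing filterByExpr. Each gene's residual deviance was set against the prior variance at its abundance in a one-sided F test (2 and 15.8 df). P-values were adjusted by Benjamini-Hochberg across the 11478 genes, with a threshold of 0.05. The procedure was tested on simulated counts, with 1 tumour changed in some of the better-counted genes. It recovered 50.7% of 4-fold and 86.7% of 8-fold changes. Each simulated gene had the spread fitted for its abundance and none of its own, so recovery in the real counts may differ. Smaller folds were not simulated, and the widest range of a tested member was 3.01-fold. The lack of calls among the members is therefore no measure of likeness. Alternatives used DESeq2 1.42.0 size factors and limma 3.58.1. Gene pairs were compared within tumours in log2(TPM + 1). A count of 0 allows up to 3 counts, 0.194 to 0.208 CPM. Intervals and floors cover counting error only, as there are no molecular identifiers.

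All members are described. From each of the 4 other lipid gene lists the 3 genes with the highest CPM, any gene past the threshold, and Insig2 and Acacb were named. Marker genes named singly, Cpt1a, Ppara and genes that share sequence with a member are outside this rule and were chosen after their values were seen. The members and lists were chosen with earlier results of these data known. Tumour numbers follow accession order and carry no pairing.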

Additional observations from a re-analysis of the deposited data

How the results depend on the processing

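No member passed the test of spread under any alternative run, and the lowest adjusted p of any member was 0.242, for Scd2 with no filter on low counts. The number of all genes past the threshold was less stable. It was 16, became 164 with no filter, and became 0 with library totals only, with genes kept at a mean of 10 or more counts, with non-robust empirical Bayes and with limma-trend. Leaving out each tumour in turn gave 0 to 11 genes, from the 2 tumours left. The cause was not tested.

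Leaving out each tumour gave 1 to 6 members with a range over 2-fold and a median of 26.8 to 36.2 CPM over the 28 members, beside 31.0 CPM with all tumours. Scd2 minus Scd1 ran from -0.56 to 0.0237, changing sign without tumour 1. Insig1 minus Insig2, 0.44 with all tumours, was 0.0949 without tumour 3 and 0.88 without tumour 2. The other 3 pairs kept their sign under every pseudocount, length and left-out tumour. The number of members highest in tumour 3 was 20 under all 3 scalings, and that of members lowest in tumour 2 was 17 to 20. The median difference tumour 3 minus tumour 2 was 0.45 to 0.53 in log2 CPM under the scalings, and library totals gave a median over all genes of at most 0.09. Depth limits Me1, Idi1, Fdps and Elovl6, and no interval covers more than counting error. No pairing of tumours between groups was possible because the tumours form 1 group. Only genes were paired, within tumours.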

Other observations

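Genes of fatty acid oxidation, the route opposite to synthesis, were mostly lower in tumour 3 than in tumour 2. Of 13 genes, 12 were tested and 0 passed the edgeR test, and tumour 3 was the lowest for 8 of the 12, where 33.0% of all tested genes were lowest in it, and the highest for 2, where 31.7% were. No test of the difference from the synthesis genes was run. The median difference of the oxidation genes in log2 CPM was -0.47 for tumour 3 minus tumour 2, beside -0.02 over all tested genes. Lowest values in tumour 3 were not particular to them. Tumour 3 was also the lowest for 10 of 15 proliferation genes and 7 of 10 B cell markers. The median differences of these lists, tumour 3 minus tumour 2, were -0.72 and -0.22. The most abundant oxidation gene was Hadha, of the trifunctional protein, with 159 CPM in tumour 3 against 219.7 and 192 CPM in tumours 2 and 1. Acadl, an acyl-CoA dehydrogenase, had 98.2 CPM against 137 and 119 CPM. Etfa, which passes on the electrons, had 75.7 CPM against 119 and 71.05 CPM.

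Cpt1a, which controls entry of fatty acids into mitochondria and was chosen after its values were seen, had 11.8 CPM in tumour 3 against 19.01 CPM in tumour 2 and 90.6 CPM in tumour 1, spanning 7.69-fold. Its edgeR adjusted p was 0.0536, so it is not called. Ppara, a regulator of oxidation, had 0 counts in every tumour, which allows up to 0.208 CPM.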
